A study of Mus musculus with 6 samples.

Results

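The genes described here are 35 of the 31053 mouse genes in the matrices, chosen by symbol: 16 enzymes of glycolysis and its bisphosphoglycerate side branch, 2 lactate dehydrogenases, 4 glucose and lactate carriers, 9 genes of pyruvate entry into mitochondria and 4 enzymes that set fructose 2,6-bisphosphate. Retinas of mice with oxygen-induced retinopathy (OIR) and of control mice (Ctrl) were dissociated at P17 and counted by droplet-based single-cell RNA sequencing. OIR pups breathed 75% oxygen between P7 and P12 and room air for the 5 days that followed, whereas Ctrl pups stayed in room air. Each group held 3 samples, and each sample pooled the retinas of 2 mice, so that no value belongs to a single animal. The labels give neither strain nor genotype, and they do not say whether the samples of a group came from separate litters, so p-values measure the spread between these pools.

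The labels call the source endothelial cells of the murine retina and the mice adult, but rod, bipolar and glial markers made up most of the cells and only 195 of the 38569 cells kept had the markers of vascular endothelium. The 6 samples held 15788524 to 42606878 UMIs (unique molecular identifiers, which count captured RNA molecules). Cells named from markers were 24926 rod-like, 1922 cone-like, 3450 Müller-like, 2061 rod bipolar-like, 3431 cone bipolar-like, 367 amacrine-like, 244 microglia-like and 237 RPE-like (retinal pigment epithelium), and these 8 types were compared between groups. VEC-like (vascular endothelial), VSMC-like (vascular smooth muscle) and astrocyte-like cells fell to 1 or 2 cells in some samples and are given as levels only. Samples OIR replicate 1 and Ctrl replicate 1 stood apart, with median UMIs per cell of 3958 and 4850 against 1449.5 to 2354 in the others and with fewer rod-like cells. Over all pairs of samples, 261 cell barcodes were shared. Xist, the RNA of the inactive X chromosome of female cells, was at 0.142 to 0.468 CPM in the OIR samples and Ctrl replicate 1 and at 1869 and 2016 CPM in Ctrl replicates 2 and 3, so group and sex cannot be fully told apart.

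Glycolysis splits glucose into pyruvate in the cytosol, and pyruvate is either reduced to lactate and exported or carried into mitochondria and oxidised. The retina makes lactate from glucose even when oxygen is present. Photoreceptors take up glucose that has crossed the retinal pigment epithelium, while lactate is exchanged among photoreceptors, glia and epithelium. Low oxygen stabilises the HIF transcription factors, which bind the core letters ACGTG or GCGTG, and many of these genes are known HIF targets.

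Promoter sequence is shown for 6 of the genes whose transcripts differed between groups, 5 with a HIF core before the start and Gpi1 with none. RefSeq promoters of GRCm38.p6, from 250 bases before to 50 bases after each start, were found for 33 of the 35 genes, 53 promoters in all; Slc2a3 and Slc16a7 had no entry. Each sequence below reads 5′ to 3′ on the gene's own strand, and the capitals mark ACGTG or GCGTG on either strand (CACGT and CACGC are their reverse complements), joined where matches overlap.
Hk2, chr6:82774455-82774704, minus strand, the 250 bases before the start: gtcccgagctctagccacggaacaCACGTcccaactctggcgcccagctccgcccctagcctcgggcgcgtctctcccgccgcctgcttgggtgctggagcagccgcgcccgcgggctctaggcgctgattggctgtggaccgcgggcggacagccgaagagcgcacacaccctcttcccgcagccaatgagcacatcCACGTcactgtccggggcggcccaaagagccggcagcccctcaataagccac
Ldha, chr7:46845554-46845803, plus strand, the 250 bases before its first start: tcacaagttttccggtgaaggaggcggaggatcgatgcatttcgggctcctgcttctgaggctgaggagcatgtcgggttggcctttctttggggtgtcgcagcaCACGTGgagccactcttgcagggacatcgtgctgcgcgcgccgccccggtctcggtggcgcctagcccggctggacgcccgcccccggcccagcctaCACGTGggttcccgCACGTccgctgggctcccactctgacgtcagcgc
Pgk1, chrX:106186850-106187099, plus strand, the 250 bases before the start: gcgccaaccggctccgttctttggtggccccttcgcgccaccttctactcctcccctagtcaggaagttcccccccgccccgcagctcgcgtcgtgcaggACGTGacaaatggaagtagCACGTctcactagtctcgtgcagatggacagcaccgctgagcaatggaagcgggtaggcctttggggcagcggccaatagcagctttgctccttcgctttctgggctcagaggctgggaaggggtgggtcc
Slc2a1, chr4:119108684-119108713, plus strand, 30 bases that begin 61 bases before the start: CACGCctctcagagtcccgccccggACGTG
Slc16a3, chr11:120949037-120949066, plus strand, the 30 bases before a RefSeq start: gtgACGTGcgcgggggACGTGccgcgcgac
Gpi1, chr7:34230337-34230586, minus strand, the 250 bases before the start, with no match: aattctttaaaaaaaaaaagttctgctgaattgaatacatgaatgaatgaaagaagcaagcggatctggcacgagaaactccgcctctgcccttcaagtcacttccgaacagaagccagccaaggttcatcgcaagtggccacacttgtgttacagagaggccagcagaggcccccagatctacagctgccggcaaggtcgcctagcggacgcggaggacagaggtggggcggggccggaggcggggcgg

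The ACGTG core was in 21 of the 53 promoters (39.6%) and in 19.6% of all 32851 promoters of the same length. GCGTG was in 52.8% against 32.4%, and either core in 38 of the 53 promoters (71.7%) against 43.8%. At least 1 promoter of 28 of the 33 genes held a core. No share by gene over all genes was computed for this count, and genes with more promoters have more places for a match. Such a match is a string of letters and not a measured binding site, and promoters of 1 gene overlap in part. In Ldha, CACGTG appeared in 2 places, where the core is read on both strands. The stretches shown for Slc2a1, Slc16a3 and Gpi1 overlap an annotated exon, and those of Slc16a3 and Ldha lie within the annotated genes. The first start of Ldha is thus the first among its RefSeq promoters and not the first base of the annotated gene.

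Levels are given in CPM, a gene's UMIs scaled to all UMIs of the same cell type in the same sample. Because only the 3′ end of each transcript was counted, CPM was not divided by gene length, and near-identical copies of a gene, as known for Gapdh, Eno1 and Pgk1, could take or lose reads. All 35 genes together made up 1.48% of UMIs in rod-like, 1.95% in Müller-like, 1.83% in rod bipolar-like and 2.08% in cone bipolar-like cells, against 0.714% in microglia-like and 0.770% in VEC-like cells. Clusters were built from the same cells, so differences between types are a description without a test. Of the 35 genes, 9 would have been among the 2000 variable genes and were left out of the clustering with the rest.

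Rod transcripts were also read outside rods. The summed level of 6 rod markers in Müller-like cells was 6.57 to 11.2% of that in the rod-like cells of the same sample, in rod bipolar-like cells 4.46 to 8.44% and in cone bipolar-like cells 5.15 to 9.5%. It reached 37.9% in cone-like, 38.0% in amacrine-like and 44.6% in RPE-like cells. How much of the level of Ldha and other transcripts abundant in rods came into other types in the same way was not tested.

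**Figure D1:**
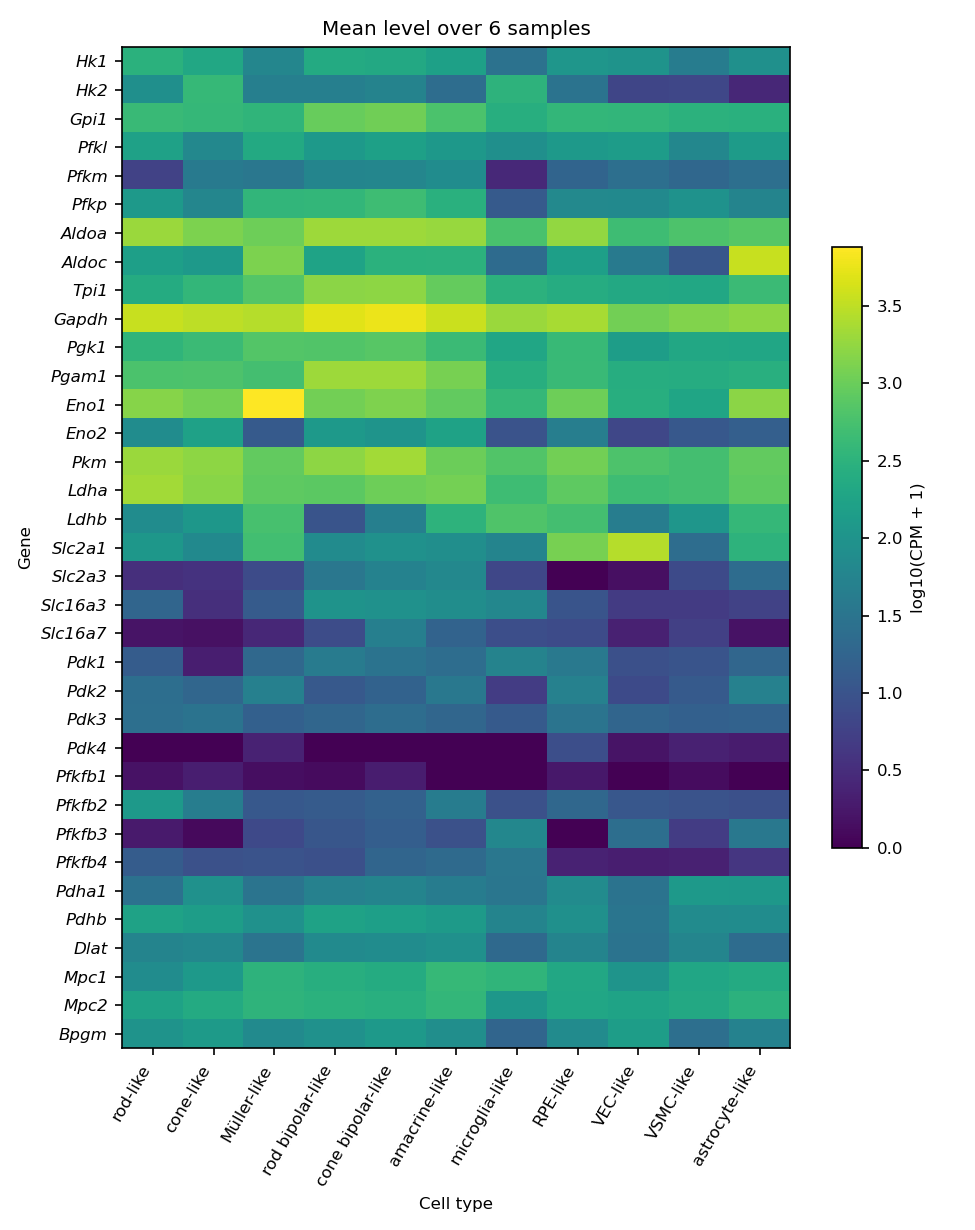
Mean level of each of the 35 genes (rows) in each of the 11 marker-named cell types (columns) over the 6 samples, as log10(CPM + 1) on a colour scale. Eno1 in Müller-like cells, 7567 CPM, is the brightest cell of the map, and the Pdk4 and Pfkfb1 rows are dark nearly throughout.

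Among hexokinases, which phosphorylate glucose on entry, Hk1 led in rod-like cells with 303 ± 27.5 CPM (SD over 6 samples, as for the levels that follow) and in both bipolar types. Hk2 led in cone-like cells with 400 ± 89.2 CPM and in microglia-like cells with 315 ± 99.6 CPM. The samples of these 2 types overlapped, at 318 to 521 CPM and 229.6 to 455 CPM, so their order is not set by these data.

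In lower glycolysis, Gapdh, glyceraldehyde phosphate dehydrogenase, was at 5845 ± 953 CPM in cone bipolar-like and 5033 ± 1062 CPM in rod bipolar-like cells. Eno1, enolase, reached 7567 ± 1910 CPM in Müller-like cells against 1511 ± 266 CPM in rod-like cells. Tpi1, triose phosphate isomerase, stood at 1588 ± 292 and 1676 ± 215 CPM in the bipolar types against 244.7 ± 69.7 CPM in rod-like cells. Pgam1, phosphoglycerate mutase, showed the same order, with 2033 ± 439.5 and 2022 ± 391 against 608 ± 135.5 CPM. Neither pair of bipolar levels differed beyond the spread between samples, while the rod-like level lay below both.

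Aldolase C (Aldoc), the isozyme of astrocytes and Müller glia, stood at 1304 ± 199 CPM in Müller-like cells and at 992 to 5115 CPM in astrocyte-like cells, of which some samples held only 1 to 3. In the other tested types its means ran from 21.9 CPM in microglia-like to 309 CPM in amacrine-like cells. Pkm, pyruvate kinase, was at 2214 ± 336 CPM in cone bipolar-like and 1981 ± 391.5 CPM in rod-like cells, which did not differ beyond their spread.

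Ldha, the subunit that favours lactate formation, was highest in rod-like cells with 2164 ± 222 CPM. Ldhb, the subunit found where lactate is used, was highest in microglia-like cells with 654 ± 159 CPM, followed by Müller-like with 569 ± 32.4 and RPE-like with 522 ± 125 CPM, 3 levels that overlapped within their spread. It was lowest in rod bipolar-like cells with 9.31 ± 2.32 CPM.

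The glucose carrier Slc2a1 (GLUT1), which passes glucose through the blood-retina barrier, was at 1224 ± 185 CPM in RPE-like cells. VEC-like cells held 1819 and 4677 CPM in the replicate 1 samples, OIR and Ctrl, which had 25 and 145 such cells, and the remaining VEC-like values rest on 2 to 16 cells. Slc2a3 (GLUT3), the neuronal carrier, was at 34.0 to 64.0 CPM in bipolar-like and amacrine-like cells and at 0 in every RPE-like sample, where a floor of 3 UMIs is 106 CPM in the shallowest sample. Slc16a3 (MCT4), which exports lactate, was at 98.5 ± 45.1 and 91.0 ± 50.7 CPM in rod and cone bipolar-like cells and at 2.33 ± 1.54 CPM in cone-like cells. Slc16a7 (MCT2), a carrier with high affinity for lactate and pyruvate, was read mostly in cone bipolar-like cells, 45.8 ± 13.1 CPM.

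At the pyruvate step, the mitochondrial pyruvate carrier subunits Mpc1 and Mpc2 ranged over the 8 types from 74.7 to 392 CPM and from 113 to 374 CPM. The pyruvate dehydrogenase subunits Pdha1, Pdhb and Dlat lay between 19.9 and 174 CPM. Of their inhibitory kinases, Pdk1 ranged from 1.12 to 53.4 CPM, Pdk2 from 3.83 to 48.9 CPM and Pdk3 from 11.5 to 30.1 CPM, and Pdk4 had no UMI in 6 of the 8 types. Bpgm, which makes 2,3-bisphosphoglycerate, lay between 17.4 and 129 CPM. Of the enzymes that make or break down fructose 2,6-bisphosphate, Pfkfb2 was at 122 ± 14.8 CPM in rod-like cells, Pfkfb3 at 62.2 ± 14.8 CPM in microglia-like cells, and Pfkfb1 at or under 1.09 CPM in all 8 types.

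Isozyme use is given as the share of a paralog among the UMIs of its family. Hk2 held 65.0 ± 4.04% of hexokinase UMIs in cone-like and 91.2 ± 4.81% in microglia-like cells, against 13 to 19.6% in rod-like, bipolar-like and amacrine-like cells. In rod-like and rod bipolar-like cells this mean spans OIR and Ctrl shares that did not overlap and moved in opposite directions, as given by group below. Pfkl, the liver-type phosphofructokinase, held 88.7 ± 13.8% of its family in microglia-like cells, and Pfkp, the platelet type, held 65.5 ± 10.9 and 67.7 ± 9.46% in rod and cone bipolar-like cells. Pfkm, the muscle type, came to 24.4 ± 6.59% in cone-like cells and to 1.76 ± 0.678% in rod-like cells.

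Aldoc held 55.4 ± 9.34% of aldolase UMIs in Müller-like and 80.0 ± 12.8% in astrocyte-like cells, and 4.13 to 12.6% in the other 7 tested types. Ldhb held over 50% of lactate dehydrogenase UMIs in microglia-like cells alone among the 8 types, 57.0, 44.0 and 57.1% in OIR and 61.9, 55.9 and 74.3% in Ctrl. In Müller-like cells its share was 38.5, 41.35 and 32.2% in OIR and 52.4, 43.4 and 41.39% in Ctrl. In Müller-like cells the highest OIR sample lay just below the lowest Ctrl sample, and in microglia-like cells the groups overlapped.

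Among the pyruvate dehydrogenase kinases, the leading one differed between types. Pdk3 held 61.0 ± 5.14% in cone-like cells, where Pdk1 held 2.39 ± 1.67%. Pdk2 held 58.6 ± 9.91% in Müller-like cells. Pdk1 held 57.0 ± 7.22% in rod bipolar-like and 76.5 ± 13.3% in microglia-like cells, where as few as 10 family UMIs came from a sample. Pfkfb2 held 89.8 ± 1.5% of its family in rod-like and 81.9 ± 5.64% in cone-like cells, and Pfkfb3 59.7 ± 10.3% in microglia-like cells. Mpc2 held 69.5 ± 3.77% of carrier UMIs in rod-like and 25.1 ± 5.12% in microglia-like cells. Slc2a3 held 45.2 ± 8.90% of glucose carrier UMIs in amacrine-like cells and 33.6 to 36.4% in bipolar-like cells.

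**Figure D2:**
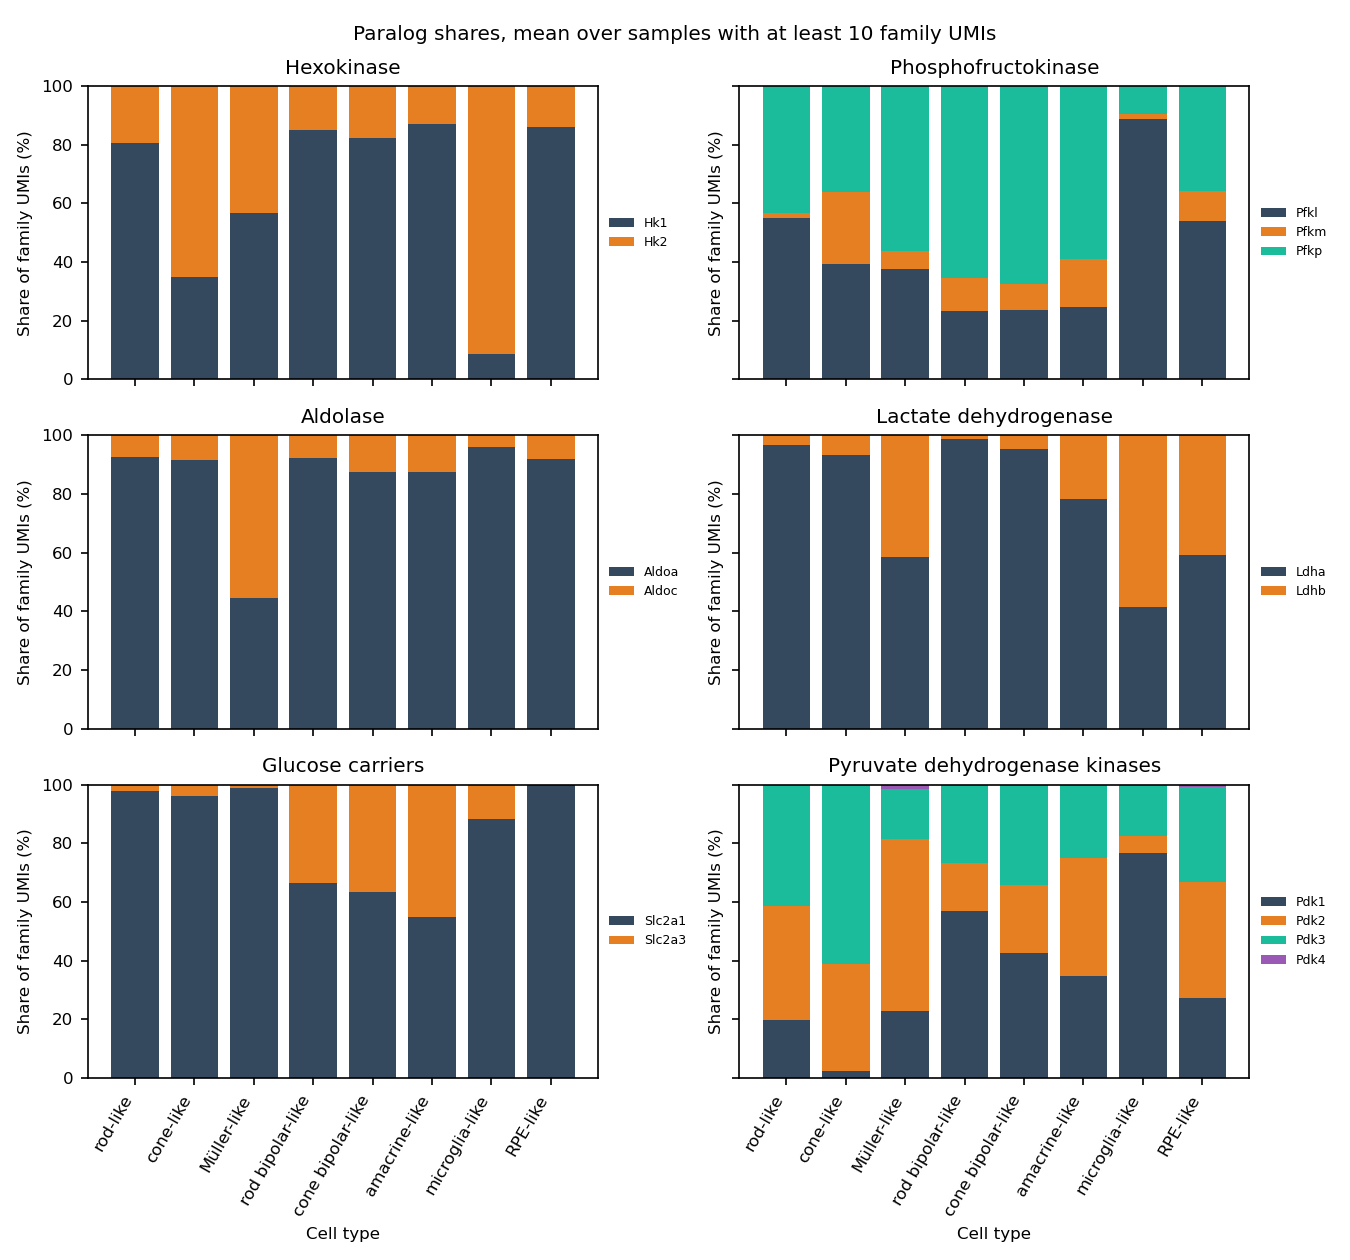
Share (%) of each paralog among the UMIs of its family, stacked to 100%, for 6 families in the 8 tested cell types, as means over the samples with at least 10 family UMIs. Hk2 takes 65.0 and 91.2% of the bar in cone-like and microglia-like cells, Aldoc 55.4% in Müller-like cells and Ldhb 58.4% in microglia-like cells.

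To ask how the OIR retina differed, raw UMIs were summed per sample and type and the 3 OIR sums compared with the 3 Ctrl sums by edgeR's quasi-likelihood test over all genes of the type. To be called, a gene needed a log2 fold change (log2FC, OIR minus Ctrl) of 0.25 or more in either direction, and p under 0.05 after Benjamini-Hochberg adjustment. Over the 35 genes, the median log2FC was negative in rod-like cells (−0.27, with 25 of 34 fitted genes below 0) and in cone-like cells (−0.21, with 28 of 34 below 0). It was positive in Müller-like cells (0.18, 23 of 35 above 0), rod bipolar-like cells (0.41, 27 of 34), cone bipolar-like cells (0.21, 23 of 34) and microglia-like cells (0.30, 23 of 33). It was −0.21 in amacrine-like cells, with 21 of 33 below 0, and 0.017 in RPE-like cells, with 17 of 33 above 0. The median over all genes that passed a filter on low counts lay between −0.012 and 0.020 in every type. The medians of the 35 genes also count genes under that filter. Over those that passed it, the median was −0.021 in RPE-like (7 of 16 above 0), 0.42 in microglia-like (14 of 18) and −0.27 in amacrine-like cells (8 of 24). In the other types its sign was the same as above. Pgk1, Pdk3, Pdha1 and Pfkfb1 lie on chromosome X. With sex as a term in edgeR, Ctrl replicate 1, with low Xist, was the only control left to set against the 3 OIR samples. In that fit Slc16a3 and Pfkp in Müller-like cells, Slc2a1 and Pfkp in rod bipolar-like cells and Pgam1 in microglia-like cells were no longer called. The log2FC of Pgk1 in Müller-like cells was 0.88. With 1 control sample, the fit cannot tell which calls depend on sex.

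**Figure D3:**
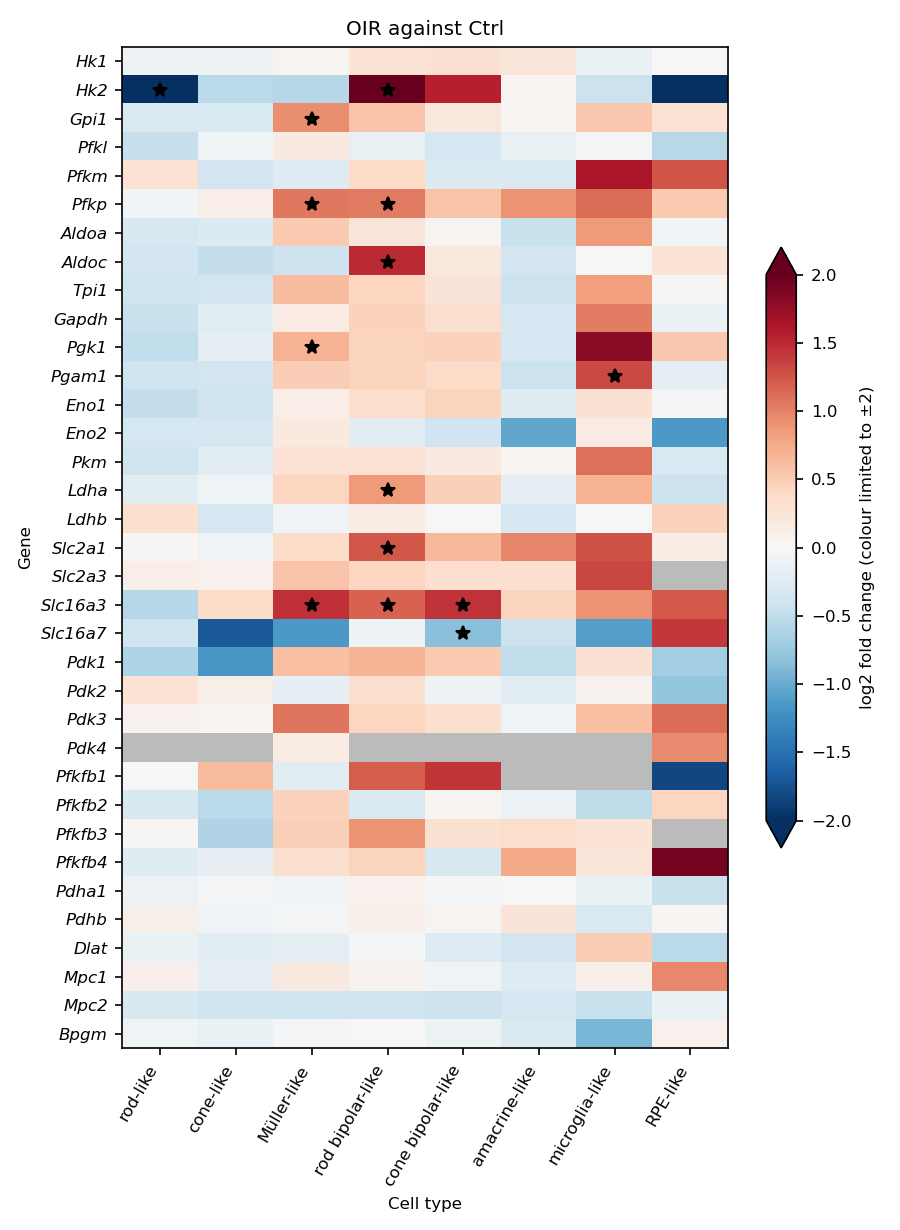
Log2 fold change (OIR minus Ctrl) of each fitted gene (rows) in the 8 tested cell types (columns), as colours limited to ±2, with stars on called genes and grey where no UMI was read. The largest values among called genes are Hk2 in rod-like cells, −2.88, and Hk2 in rod bipolar-like cells, 2.07.

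In rod-like cells, Hk2 fell in OIR and was the only 1 of the 35 genes called, with 0 higher and 1 lower against 1.74% of all genes called higher and 1.1% lower. Its level was 38.3, 12.5 and 15.6 CPM in the 3 OIR samples (323, 129 and 197 UMIs) and 194.5, 118.9 and 125.2 CPM in the Ctrl samples (998, 1095 and 1189 UMIs). Every OIR sample lay below every Ctrl sample, and OIR replicate 1 was the highest of its group. The log2FC was −2.88 (SE 0.41, adjusted p 0.013). Within each of the 3 rod-like clusters the groups did not overlap either, with 7.86 to 57.4 CPM in OIR and 83.4 to 297.4 CPM in Ctrl.

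Hk2 in rod-like cells was not called without OIR replicate 2 (adjusted p 0.064), OIR replicate 3 (0.078), Ctrl replicate 2 (0.055) or Ctrl replicate 3 (0.055), while its log2FC stayed between −3.56 and −2.58 over all alternatives. Globin transcripts moved with it. The summed level of 4 globin genes in rod-like cells was 9.49 to 48.5 CPM in OIR and 1586 to 2586 CPM in Ctrl. In rod-like cells without a globin UMI, Hk2 had a log2FC of −2.85 (adjusted p 0.012). The summed level of 6 rod markers was 26250 to 27370 CPM in OIR and 27360 to 29710 CPM in Ctrl. Cone markers were raised in both replicate 1 samples, at 576 and 513 CPM against 57.5 to 104.5 CPM in the other 4, and their part in the level of Hk2 was not tested.

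The summed level of all 35 genes in rod-like cells was 16759, 12042 and 12247 CPM in OIR and 15759, 15757 and 15962 CPM in Ctrl. OIR replicate 1 stood above the Ctrl samples and the other 2 OIR samples below them. Without OIR replicate 1, 13 of the genes were called lower and none higher: Hk2, Pgk1 (log2FC −0.82), Tpi1 (−0.89), Pgam1 (−0.77), Aldoa (−0.70), Pfkl (−0.88), Slc16a3 (−1.10), Pdk1 (−1.13), Eno1 (−0.69), Gapdh (−0.65), Aldoc (−0.58), Gpi1 (−0.51) and Mpc2 (−0.50). In that fit 2.35% of all genes were called higher and 1.99% lower. OIR replicate 1 stood apart in the summed level of these same genes, so these calls are no separate evidence of a fall. Leaving out each sample in turn gave 0 to 13 calls, for which the share of all genes is not given except here. With replicates 2 and 3 of each group alone, 16 of the 35 genes were called, all lower, beside 11.2% of all genes called higher and 11.5% lower. With the replicate number as a block, a pairing that the rod-like correlations bear out only in part, 4 genes were called lower. These were Hk2 (−3), Aldoc (−0.40), Pkm (−0.42) and Eno2 (−0.35), beside 6.42% of all genes called higher and 6.01% lower in that fit. Rod-like replicates 2 and 3 also correlated across groups where their numbers differed (r 0.221 and 0.230). The correlations thus set replicate 1 apart more than they pair replicates 2 and 3 by number.

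In cone-like cells, 0 of the 35 genes passed in edgeR and 0 in DESeq2, beside 0.819% of all genes called higher and 0.489% lower. An unadjusted p under 0.05 was found for 10 of the 35. For this count and the later ones at unadjusted p, no share of all genes at that threshold is given. They cannot be read as more or fewer than among all genes. The lowest adjusted p, 0.090, was that of Hk2, at 345, 335 and 318 CPM in OIR and 377, 521 and 504 CPM in Ctrl. The groups did not overlap, and the log2FC was −0.54 (SE 0.15). The 6 rod markers in cone-like cells stood at 22.3, 37.9 and 29.9% of the rod-like level in OIR and 34.0, 37.8 and 35.7% in Ctrl. Hk2 was itself lower in rod-like cells of OIR, and the part of rod RNA in its cone-like values was not tested. The summed level of the 35 genes was 12241, 12078 and 11526 CPM in OIR and 13546, 13613 and 13614 CPM in Ctrl, also without overlap.

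**Figure D4:**
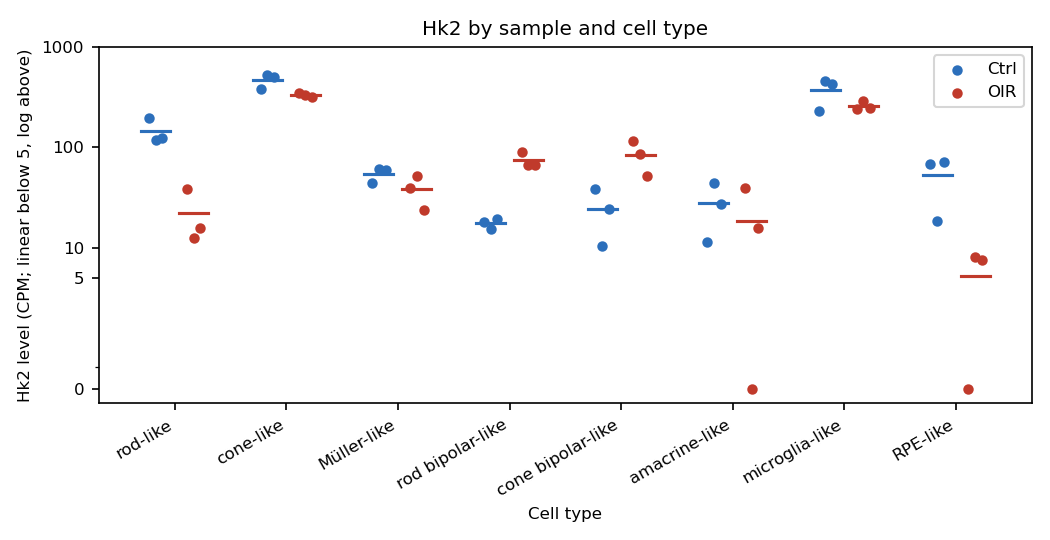
Level of Hk2 (CPM, axis linear below 5 and logarithmic above) in each of the 6 samples in the 8 tested cell types, with a bar at each group's mean. OIR points lie below Ctrl points in rod-like cells (12.5 to 38.3 against 118.9 to 194.5 CPM) and above them in rod bipolar-like cells (66.3 to 90.6 against 15.4 to 19.2 CPM).

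In Müller-like cells, 4 of the 35 genes rose in OIR and none fell, beside 1.47% of all genes called higher and 0.998% lower. Gpi1, glucose phosphate isomerase, was at 495.5, 406 and 488 CPM in OIR and at 233, 222 and 241 CPM in Ctrl. All OIR samples were above all Ctrl samples, with a log2FC of 0.93 (SE 0.15, adjusted p 0.012). Pfkp was at 595, 422 and 450.2 CPM in OIR and at 256, 239 and 182 CPM in Ctrl, without overlap and with OIR replicate 1 highest (log2FC 1.05, SE 0.19, adjusted p 0.021).

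Pgk1, phosphoglycerate kinase, was at 875, 863 and 836 CPM in OIR and at 449.8, 539 and 528 CPM in Ctrl, and the 3 OIR values lay close together above all Ctrl values (log2FC 0.70, SE 0.15, adjusted p 0.036). Slc16a3 was low, at 21.5, 13.2 and 18.6 CPM (167, 42 and 57 UMIs) in OIR and 7.47, 6.35 and 3.66 CPM (42, 15 and 6 UMIs) in Ctrl. Its groups did not overlap (log2FC 1.47, SE 0.29, adjusted p 0.030).

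Müller-like cells formed 2 clusters, and the one with few UMIs held 25.1 to 55.4% of them per sample, its largest shares in OIR replicates 2 and 3. Gpi1, Pfkp and Pgk1 were higher in OIR without overlap within both clusters. Slc16a3 was so only in the cluster with many UMIs, and the other held 1 to 15 Slc16a3 UMIs a sample. Pgk1 was not called without the cluster of few UMIs (adjusted p 0.096). Clustering without integration kept only the call of Gpi1, and leaving out OIR replicate 1, OIR replicate 3, Ctrl replicate 2 or Ctrl replicate 3 left none (Gpi1 then at adjusted p 0.050 to 0.067). Pigment epithelium markers, 8 genes summed, were also higher in Müller-like cells of OIR, at 554, 675 and 625 CPM in OIR and 472, 442 and 460.2 CPM in Ctrl, and their part in these rises was not tested.

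Aldoc went with the lower values in Müller-like cells, with a log2FC of −0.42 that was not called (adjusted p 0.24). Its share of aldolase UMIs was 43.8, 53.8 and 45.1% in OIR and 65.4, 62.3 and 62.2% in Ctrl, so that Aldoc was above 50% in every Ctrl sample and in 1 OIR sample. The groups did not overlap (47.6 ± 5.41% against 63.3 ± 1.83%, SD, n = 3 each, 2-sided exact permutation p 0.1, the smallest that 3 against 3 samples can give). Other genes with an unadjusted p under 0.05 that were not called included Tpi1 (log2FC 0.61), Pdk1 (0.60), Pdk3 (1.08), Aldoa (0.52), Pgam1 (0.49), Ldha (0.44) and Mpc2 (−0.39).

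In rod bipolar-like cells, 6 of the 35 genes rose in OIR and none fell, beside 1.25% of all genes called higher and 1.14% lower. Hk2 was at 90.6, 66.3 and 66.5 CPM in OIR (432, 115 and 98 UMIs) and at 17.8, 15.4 and 19.2 CPM in Ctrl (98, 20 and 19 UMIs). All OIR samples lay above all Ctrl samples, with a log2FC of 2.07 (SE 0.21, adjusted p 0.000117). In OIR the level was also above that of rod-like cells in the same samples, whereas in Ctrl it was below it.

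Aldoc was at 359, 209 and 219 CPM in OIR and at 85.2, 105.4 and 90.1 CPM in Ctrl, every OIR sample being higher (log2FC 1.49, SE 0.22, adjusted p 0.0019). Ldha was at 1114, 929 and 1013 CPM in OIR and at 462, 555 and 644 CPM in Ctrl, again without overlap (log2FC 0.86, SE 0.16, adjusted p 0.011). Pfkp was at 669, 479 and 364.5 CPM in OIR and at 251, 299 and 174 CPM in Ctrl (log2FC 1.03, SE 0.23, adjusted p 0.028). The lowest OIR sample of Pfkp was above the highest Ctrl sample, and Pfkp was not called by DESeq2 (adjusted p 0.15).

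Both carriers among the called genes rose. Slc16a3 was at 156, 145 and 104 CPM in OIR and at 42.6, 64.6 and 79.0 CPM in Ctrl (log2FC 1.18, SE 0.22, adjusted p 0.0093). Slc2a1 was at 139.6, 105 and 69.9 CPM in OIR and at 49.3, 36.2 and 43.5 CPM in Ctrl (log2FC 1.25, SE 0.24, adjusted p 0.012). Neither overlapped between groups, and OIR replicate 3 was the lowest OIR sample for both. Leaving out single samples gave 3 to 6 of the 35 genes called. The share of all genes called in those fits is not given, so this count cannot be set against it. Hk2 and Aldoc were called in each of 17 alternatives.

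In cone bipolar-like cells, 1 gene rose and 1 fell, both lactate carriers, beside 0.487% of all genes called higher and 0.351% lower. Slc16a3 was at 142, 159.7 and 98.6 CPM in OIR and at 42.9, 52.3 and 50.3 CPM in Ctrl, with every OIR sample higher (log2FC 1.44, SE 0.19, adjusted p 0.0044). It was called in each of 17 alternatives, and the groups did not overlap within 5 of the 6 clusters.

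Slc16a7 was at 32.3, 35.1 and 35.3 CPM in OIR and at 63.0, 54.0 and 55.3 CPM in Ctrl, with every OIR sample lower (log2FC −0.83, SE 0.16, adjusted p 0.028). Among the 6 cone bipolar-like clusters it was highest in the one led by Grik1, Otor and Kcnip4, and no sample of the other 5 was above 34.0 CPM. Within that cluster it was at 239, 270.4 and 281 CPM in OIR and at 288, 432 and 373 CPM in Ctrl, still without overlap. That cluster made up 13.1 to 15.4% of cone bipolar-like cells in OIR and 17.2 to 22.7% in Ctrl, and its part in the fall was not tested. Slc16a7 was not called without any 1 of 5 samples (adjusted p 0.0503 to 0.124).

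As a share of both carriers' UMIs in cone bipolar-like cells, Slc16a7 went from 59.5, 50.8 and 52.4% in Ctrl to 18.5, 18.0 and 26.3% in OIR. The Ctrl samples were all above 50% and the OIR samples all below 30% (54.2 ± 4.64% against 21.0 ± 4.66%, SD, n = 3 each, exact permutation p 0.1).

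Hk2 in cone bipolar-like cells was at 114.8, 85.3 and 51.6 CPM in OIR and at 38.3, 10.3 and 24.1 CPM in Ctrl. The groups did not overlap, and the log2FC of 1.56 (SE 0.35) missed the threshold at adjusted p 0.054. With the replicate block, which the same-numbered cone bipolar-like samples allowed, it was called (log2FC 1.71), and 7 genes rose and 2 fell. Besides Hk2 and Slc16a3 these were Pgk1 (0.46), Slc2a1 (0.67), Eno1 (0.45), Ldha (0.50) and Pfkp (0.57) upward and Slc16a7 (−0.84) and Mpc2 (−0.41) downward. In that fit 2.53% of all genes were called higher and 2.67% lower.

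In microglia-like cells, with 17 to 81 cells a sample, Pgam1 rose and no other gene was called, beside 0.293% of all genes called higher and 0.0293% lower. Pgam1 was at 447, 383 and 334 CPM in OIR (344, 69 and 83 UMIs) and at 175, 105 and 179 CPM in Ctrl (103, 15 and 34 UMIs). The groups did not overlap (log2FC 1.32, SE 0.26, adjusted p 0.049), and the call was lost in 8 of 16 alternatives. The Müller marker list, 8 genes summed with Apoe among them, was also higher in microglia-like cells of OIR. It stood at 42390, 45470 and 51930 CPM in OIR and 17240, 20930 and 20900 CPM in Ctrl. In Müller-like cells the same sum was 31410, 30310 and 25150 CPM in OIR and 40100, 34400 and 30380 CPM in Ctrl. In OIR it was thus higher in microglia-like than in Müller-like cells and is not a measure of Müller transcripts alone. Its part in the rise of Pgam1 was not tested. DESeq2 also called Gapdh (1.04) and Pkm (1.13). Pgk1 had the largest value, a log2FC of 1.81, and was not called in edgeR (adjusted p 0.11).

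In amacrine-like cells, edgeR and DESeq2 called 0 of the 35 genes, where 0% of all genes were called higher and 0% lower, and 3 had an unadjusted p under 0.05. RPE-like cells gave 0 calls by either tool, beside 0% of all genes higher and 0.0558% lower, and 2 unadjusted p under 0.05. In simulated counts at these depths, 15 and 27% of genes changed 2-fold were recovered in amacrine-like and RPE-like sums, against 57 to 71% in the 5 types with most cells. Of genes changed 4-fold, 75 and 82% were recovered in these 2 types.

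**Figure D5:**
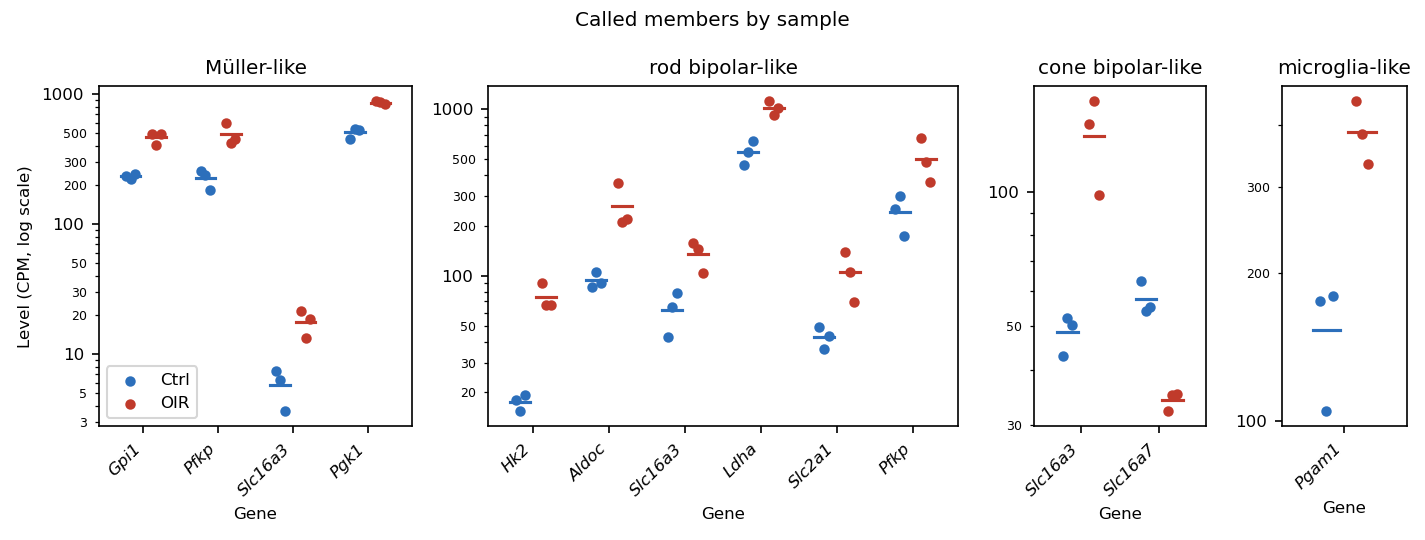
Level (CPM, logarithmic axis) of the called genes by sample in Müller-like, rod bipolar-like, cone bipolar-like and microglia-like cells, with a bar at each group's mean. OIR points lie above Ctrl points for every gene but Slc16a7, which stands at 32.3 to 35.3 CPM in OIR and 54.0 to 63.0 CPM in Ctrl.

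Mpc2 was the one gene whose log2FC was negative in all 8 types, from −0.14 in RPE-like to −0.45 in microglia-like cells, and it was called in none of them by edgeR without the block. Its unadjusted p was under 0.05 in 5 types, the 2 photoreceptor, the Müller and the 2 bipolar types. The share of Mpc2 among carrier UMIs in rod-like cells was 68.5, 65.4 and 64.9% in OIR and 71.5, 73.5 and 73.1% in Ctrl. In Müller-like cells it was 47.3, 43.5 and 47.2% in OIR and 53.2, 57.3 and 57.7% in Ctrl. It was lower in OIR without overlap in 7 of the 8 types, all but amacrine-like cells.

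Whether the OIR effect differed between types was tested as an interaction with the sample as a block. Without that block fewer genes differed in each comparison below, and the counts also shifted when single samples were left out. Between Müller-like and rod-like cells, 7 of the 35 genes differed, all with the more positive effect in Müller-like cells, beside 1.57% of all genes. These were Hk2 (log2 difference 2.33, adjusted p 0.021), Slc16a3 (1.97, 0.011), Gpi1 (1.22, 0.0043), Pgk1 (1.22, 0.012), Pfkp (1.13, 0.011), Pgam1 (0.92, 0.035) and Aldoa (0.87, 0.043). For Hk2 the difference came with values of −0.57 in Müller-like and −2.88 in rod-like cells, so that neither was positive.

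Between cone-like and rod-like cells, 2 genes differed, beside 1.16% of all genes. Hk2 had the less negative effect in cone-like cells (difference 2.45, SE 0.29, adjusted p 5.46e-05). Ldhb had the lower one (−0.65, SE 0.16, adjusted p 0.044), with a log2FC of −0.33 in cone-like and 0.33 in rod-like cells, neither of them called.

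The comparison of rod bipolar-like with rod-like cells was added because Hk2 had moved in opposite directions, so its difference there restates that observation. There 11 genes differed, all more positive in rod bipolar-like cells, beside 1.42% of all genes. The difference for Hk2 was 5.09 (SE 0.29), and those for Aldoc, Slc16a3 and Slc2a1 were 1.82, 1.72 and 1.21. The other 7 genes, Pdk1, Pfkp, Ldha, Pgk1, Pgam1, Gpi1 and Eno1, differed by 0.84 to 1.16.

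Hexokinase shares followed the levels. In rod-like cells Hk2 held 10.5, 3.69 and 5.47% in OIR and 38.4, 27.6 and 31.9% in Ctrl. In rod bipolar-like cells it held 25.6, 19.0 and 21.4% in OIR and 7.88, 6.71 and 8.33% in Ctrl. In cone-like cells it held 63.0, 60.6 and 61.1% in OIR and 65.9, 70.2 and 68.8% in Ctrl. None of the 3 types overlapped between groups. Hk2 stayed above 50% in every cone-like sample and below 50% in every rod-like and rod bipolar-like sample. The part of rod RNA in the cone-like shares was not tested.

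The share of Pfkp among phosphofructokinase UMIs was higher in OIR in 4 types. The Pfkp share was 67.8, 63.4 and 60.5% in OIR against 60, 46.2 and 39.7% in Ctrl in Müller-like cells. It was 76.2, 76.0 and 68.5% against 65.8, 58.9 and 47.6% in rod bipolar-like cells, and 72.2, 80.7 and 71.7% against 66.6, 61.0 and 53.7% in cone bipolar-like cells. In amacrine-like cells it was 57.7, 80.0 and 69.8% against 53.8, 42.4 and 50%. The groups did not overlap in these types, and Ctrl replicate 1 was the highest Ctrl sample in all 4. In rod-like cells they overlapped (46.3 ± 5.23% against 40.0 ± 7.66%, SD, n = 3 each, exact permutation p 0.4).

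Of the shares in other families, some separated the groups and some did not. Pdk3 in cone-like cells was at 67.5, 56.1 and 62.0% in OIR and 66.3, 55.4 and 58.6% in Ctrl. Pdk1 in rod bipolar-like cells was at 68.5, 57.4 and 50.5% against 57.6, 60 and 48.3%, and Pfkfb2 in rod-like cells at 90.1, 91.1 and 87.2% against 90.8, 90.7 and 88.9%. Each of these overlapped between the groups. Pdk2 in Müller-like cells was at 52.8, 55.4 and 43.6% in OIR and 70.3, 62.0 and 67.3% in Ctrl, without overlap.

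A further list of 58 genes of glycolysis and its side paths (other isozymes and carriers, the pentose phosphate path, gluconeogenesis, mitochondrial shuttles and glycogen) held 9 to 39 genes that passed the filter in a type. Of these, Rpia, ribose 5-phosphate isomerase, fell (log2FC −0.84) and Pck2, mitochondrial phosphoenolpyruvate carboxykinase, rose (1.71) in rod-like cells. Slc16a8, the lactate carrier of the pigment epithelium, rose in rod-like (2.62) and cone-like cells (2.89), and Pgm2, a phosphoglucomutase, in rod bipolar-like cells (1.02). The summed level of 8 pigment epithelium markers in rod-like cells was 33.7 to 68.7 CPM in OIR and 26.5 to 32.3 CPM in Ctrl and in cone-like cells it was 15.5 to 31.3 CPM and 10.8 to 17.5 CPM, and its part in the rise of Slc16a8 was not tested. In the other 5 types edgeR called none of the list, with 11, 8, 1, 1 and 0 genes at an unadjusted p under 0.05 in Müller-like, cone bipolar-like, amacrine-like, microglia-like and RPE-like cells, and DESeq2 called 1 gene in Müller-like cells.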

How the data were processed

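Single-cell suspensions of P17 retinas were captured with 10x Genomics 3′ chemistry, and the authors deposited filtered matrices of raw UMI counts, with no normalization. The labels name the mm10 build. Cells with 500 to 5000 detected genes and at most 20% mitochondrial UMIs were kept, as in the study (38569 of 47631 barcodes). The pooled OIR cells and the pooled Ctrl cells were integrated with Seurat 5.3.0 and clustered at resolution 0.5 on 15 components, with the 35 genes left out. Samples within a group were not integrated with one another. Clusters were named from marker lists. Cone bipolar-like cells were clusters with bipolar markers and low Prkca, and of these 6 clusters 1 scored highest for rod bipolar and 1 for horizontal markers. Clusters that could not be named held 1593 cells. No doublets were removed in the main analysis.

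UMI counts were summed per sample and type and tested with edgeR 4.0.16 (quasi-likelihood, TMM, filterByExpr) wherever each sample held 10 or more cells of the type. Benjamini-Hochberg adjustment ran over all genes of a type, and genes under the filter were fitted beside the rest. DESeq2 1.42.0 was an alternative. Shares were compared by 2-sided exact permutation, where 3 against 3 samples cannot go below p 0.1. The tests were checked on simulated data. Of all calls there, 13 of 172 in rod-like and 11 of 170 in Müller-like sums were false. In rod bipolar-like, cone bipolar-like and amacrine-like sums 18 of 187, 16 of 170 and 12 of 102 were false. These shares lie above the threshold set for adjusted p. In cone-like, microglia-like and RPE-like sums the false calls, 6 of 171, 4 of 130 and 4 of 113, stayed below it. Each type was simulated once, with genes drawn independently and no difference between replicates beyond depth and random spread. The shares are thus rough and do not rank the types. Calls near the threshold may be less sure than their adjusted p reads in any type. One rod marker, and an alternative scaled to it, are not reported here. Aldoa stood in 2 rows, and the main gene was used. All 35 genes are accounted for. Values by sample are given for called genes whose groups did not overlap and for paralogs whose share crossed 50% between types, and genes of the further list are named only where called. The genes, lists and rules were chosen with earlier results of these data known. Same-numbered samples deviated together in rod-like (r 0.270 to 0.489) and cone bipolar-like cells (r 0.140 to 0.347), so the replicate number was taken to pair them there. In rod-like cells, OIR replicate 2 with Ctrl replicate 3 (r 0.221) and OIR replicate 3 with Ctrl replicate 2 (r 0.230) came close to the lowest same-numbered pair. The remaining rod-like pairs, each with a replicate 1 sample, were at r −0.407 to −0.312. The rod-like values thus set replicate 1 apart more than they pair replicates 2 and 3 by number.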

Additional observations from a re-analysis of the deposited data

Results flagged for a closer look

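These results are singled out because the effect of OIR differed between cell types in edgeR's interaction test. Without the sample block fewer genes differed in each comparison, as given in the section that follows. Between Müller-like and rod-like cells the log2 difference was 2.33 for Hk2, 1.97 for Slc16a3, 1.22 for Gpi1, 1.22 for Pgk1, 1.13 for Pfkp, 0.918 for Pgam1 and 0.873 for Aldoa. Between cone-like and rod-like cells it was 2.45 for Hk2 and −0.645 for Ldhb.

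Between rod bipolar-like and rod-like cells, a comparison chosen after the data were seen, the difference was 5.09 for Hk2, 1.82 for Aldoc, 1.72 for Slc16a3, 1.21 for Slc2a1, 1.16 for Pdk1, 1.10 for Pfkp and 1.05 for Ldha. It was 0.957 for Pgk1, 0.882 for Pgam1, 0.852 for Gpi1 and 0.839 for Eno1. Rod-like cells are the common partner of all these comparisons, so a change in them enters each one. That of Hk2 restates the observation for which the comparison was chosen.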

How the results depend on the processing

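No called log2FC of OIR against Ctrl among the 35 genes changed direction in the alternatives run. This does not cover values that were not called. Counts in this section stand without the share of all genes called, except where that share is printed here or above. Leaving out 1 sample at a time gave 0 to 13 calls among the 35 genes in rod-like cells (1 in the main test), 0 to 1 in cone-like (0), 0 to 4 in Müller-like (4), 3 to 6 in rod bipolar-like (6), 1 to 2 in cone bipolar-like (2) and 0 to 1 in microglia-like cells (1). For the differences between types it gave 1 to 12 for Müller against rod (7), 1 to 2 for cone against rod (2) and 5 to 13 for rod bipolar against rod (11). For the further list it gave 0 to 5 in rod-like (3), 0 to 1 in cone-like (1), 0 to 3 in Müller-like (0), 1 to 2 in rod bipolar-like (1) and 0 to 1 in cone bipolar-like cells (0).

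With the replicate number as a block, 11 of the 35 genes were called in rod bipolar-like cells and 9 in cone bipolar-like cells. Rod-like cells gave 4 calls and cone-like cells 1. In rod bipolar-like cells 10 of the calls were higher and Mpc2 was lower, and in cone-like cells Hk2 was lower. Over all genes, 6.42% were called higher and 6.01% lower in the rod-like block fit. In the cone bipolar-like block fit these shares were 2.53 and 2.67%. For the cone-like and rod bipolar-like block fits they are not given, so the counts there cannot be set against them. Between types, 1 and 7 genes differed for cone against rod and rod bipolar against rod. With the block, the further list gave 7, 2, 3 and 4 calls in rod-like, Müller-like, rod bipolar-like and cone bipolar-like cells. The rule for pairing was met in rod-like and cone bipolar-like cells only, and elsewhere same-numbered samples correlated at r −0.076 to 0.352. Replicates 2 and 3 alone gave 16 calls in rod-like cells, all lower, and 1 in cone-like cells, and 8, 2 and 1 of the further list in rod-like, rod bipolar-like and cone bipolar-like cells.

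Without the filter on low counts, 1, 5 and 4 of the 35 genes were called in cone-like, cone bipolar-like and microglia-like cells, 14 differed for Müller against rod, and the further list gave 3, 3, 2 and 1 calls in Müller-like, rod bipolar-like, cone bipolar-like and microglia-like cells. DESeq2 called 3 of the 35 genes in microglia-like cells and 1 of the further list in Müller-like cells. Clusters without integration gave 1 call in Müller-like cells and left microglia unnamed. A sex term left Ctrl replicate 1 as the only control for the OIR effect, so no counts are given for that fit. A mitochondrial limit of 10% gave 0 calls among the 35 genes in microglia-like cells, and no upper limit on detected genes gave 1 of the further list in Müller-like cells. Without the sample block, 1, 0 and 2 genes differed for Müller, cone and rod bipolar against rod. The cause of these shifts was not tested.

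The 33 isozyme shares followed here moved by less than 1 SD in all 326 recomputations. Part of these left out 1 of the 6 samples, which cannot move a mean by 1 SD. Their outcome was thus fixed in advance, and only the recomputations on other cell sets could have come out otherwise. In simulated counts, 39% of genes changed 2-fold and 87% of those changed 4-fold were recovered in microglia-like sums, 15 and 75% in amacrine-like and 27 and 82% in RPE-like sums.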
